A study of Mus musculus with 26 samples.

Results

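The heat shock proteins and chaperones described here are 91 of the 55401 genes in a count table made from MII oocytes and 1-cell embryos of the mouse. They were chosen by name and not by any measured value: every protein-coding gene of the GENCODE vM21 annotation whose symbol begins with Hsp or Dnaj, the subunits of the cytosolic chaperonin (Tcp1 and Cct genes numbered 2 to 8), Bag1 to Bag6, Stip1, Ahsa1, Hsf1 and Hsf2. Hspa5, Hsp90b1 and Hspg2 were left out by name. By class, 28 of the 91 were DNAJC genes, 13 DNAJB genes, 4 DNAJA genes, 13 HSP70 or HSP110 genes, 9 chaperonin subunits or relatives, 8 small heat shock proteins, 6 BAG genes, 2 HSP90 genes, 2 mitochondrial chaperonin genes, 2 heat shock factors and 4 other co-chaperones. Although the set is called cytosolic, its naming rule also takes in proteins of other compartments. Of the 91, 5 were assigned here to J proteins of the endoplasmic reticulum (ER) lumen, 6 to the ER membrane or microsomes and 8 to mitochondria. Counts over the members pool these with the other 72, and the ER lumen J proteins are also described apart. That remainder is a mixed class of cytosol, nucleus or other, and it may hold further members of the ER or mitochondria. Cct6a, the remaining subunit of the cytosolic chaperonin, is not typed as protein-coding in that annotation and is therefore not a member.

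RNA-seq libraries of 5 groups were compared, all from B6D2F1 mice, a hybrid strain. In the first series of libraries, 7 came from embryos treated with 10058-F4, a thiazolidinone that keeps c-Myc, a transcription factor, from binding its partner Max (called the c-Myc inhibitor here), and 7 from untreated control embryos. Exposure to it began 2 h after insemination and lasted 10 h, at a dose that the sources used here do not give. In the second series, 4 libraries came from embryos kept in 100 µg/ml alpha-amanitin, a fungal blocker of RNA polymerase II, which was added 1 h after insemination and stayed for 10 h, 4 from untreated control embryos, and 4 from MII oocytes, which are unfertilised and halted at the second meiotic metaphase. All embryos were B6D2F1xB6D2F1 (F2) embryos made by in vitro fertilisation with oocytes of superovulated 8-week-old females, and the labels give each an age of 10 h (oocytes: 0 h). The start and length of exposure add up to more than this labelled age, so the time from insemination to lysis is unclear, and whether it was the same in all groups of embryos was not tested. Since no label names a donor or batch, n counts libraries throughout, and a p-value reflects only how these libraries spread, which may be technical. If a library held more than 1 embryo, fewer embryos with a transcript and less of it in each cannot be told apart.

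Chaperones bind unfolded or partly folded proteins and let them reach or recover their shape. HSP70 proteins do so in cycles of ATP binding that J proteins (the DNAJ families) start and that BAG and HSP110 proteins end by releasing ADP, while HSP90 takes over later clients with the help of co-chaperones such as Stip1 and Ahsa1, and the ring-shaped chaperonin of Tcp1 and Cct subunits folds actin and tubulin. Heat shock factors, chiefly Hsf1, bind repeats of the sequence nGAAn before many of these genes. In the mouse, Hsf1 is also known as a maternal factor that oocytes need, and Hspa1a and Hspa1b are known as early markers of transcription in the 1-cell embryo.

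The c-Myc inhibitor series had 20566278 to 27266040 counts in a library, and the alpha-amanitin series 5371602 to 31540627, with the lowest total in alpha-amanitin replicate 3. At least 1 count was present in some library for 87 members, and Dnajb8, Dnajb13, Hspb2 and Hspb9 had none. The 91 members together held 0.999% ± 0.0646 of all counts in c-Myc inhibitor embryos, against 1.18% ± 0.0354 in their control embryos (SD, n = 7 each), and the libraries of these groups did not overlap (0.930% to 1.08% against 1.13% to 1.24%). In the other series the share was 1.00% ± 0.190 in alpha-amanitin embryos, 0.954% ± 0.0694 in their control embryos and 1.11% ± 0.0244 in oocytes (n = 4 each). Marker genes moved with some of the same groups. The summed level of 10 oocyte markers, all of them detected, ran from 7564 to 9242 CPM, counts scaled to a common library total in c-Myc inhibitor embryos and from 4330 to 6165 CPM in their control embryos. It ran from 4250 to 6562 CPM in alpha-amanitin embryos, from 4544 to 5422 CPM in their control embryos and from 9488 to 10391 CPM in oocytes. Of 12 cumulus and granulosa cell markers, 8 were detected in c-Myc inhibitor embryos and 9 in their controls, with sums of 6.36 to 22.3 CPM and 8.75 to 27.7 CPM, and Tnfaip6 was at 0 in both groups. The 10 sperm and spermatid markers summed to 346 to 564 CPM in c-Myc inhibitor embryos and 257 to 367 CPM in their controls, nearly all of it Odf2, and Prm1, Tnp1, Tnp2, Smcp and Gapdhs were at 0 in both groups.

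Hsp90aa1, the stress-inducible cytosolic HSP90, was the most abundant member per length of exon in every group. Its mean was 506 CPM per kilobase in c-Myc inhibitor embryos, 808 in their control embryos, 571 in alpha-amanitin embryos, 533 in their control embryos and 666 in oocytes. In the c-Myc control embryos its transcript alone took 26.5% ± 2.95 of all counts on the 91 members (SD, n = 7). On the same scale, the group means of Dnajc8, a nuclear J protein of the spliceosome, Dnaja2, a cytosolic J partner of HSP70, Hsp90ab1, the constitutive HSP90, and Stip1, which hands clients from HSP70 to HSP90, all lay between 91.2 and 171 CPM per kilobase. Far below them stood an inducible HSP70 gene: Hspa1b had 0.770, 3.30, 0.340, 0.845 and 1.14 CPM per kilobase in the same order of groups, against 64.8, 46.4, 36.6, 28.2 and 95.1 for Hspa8, the constitutive HSP70. Reads that Hspa1b shares with its copy Hspa1a can be split or lost in counting, so its levels may be too low. Hspb1, a small heat shock protein that holds unfolded proteins without ATP, averaged 0.321 CPM in c-Myc inhibitor embryos and 1.33 CPM in their controls.

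**Figure D1:**
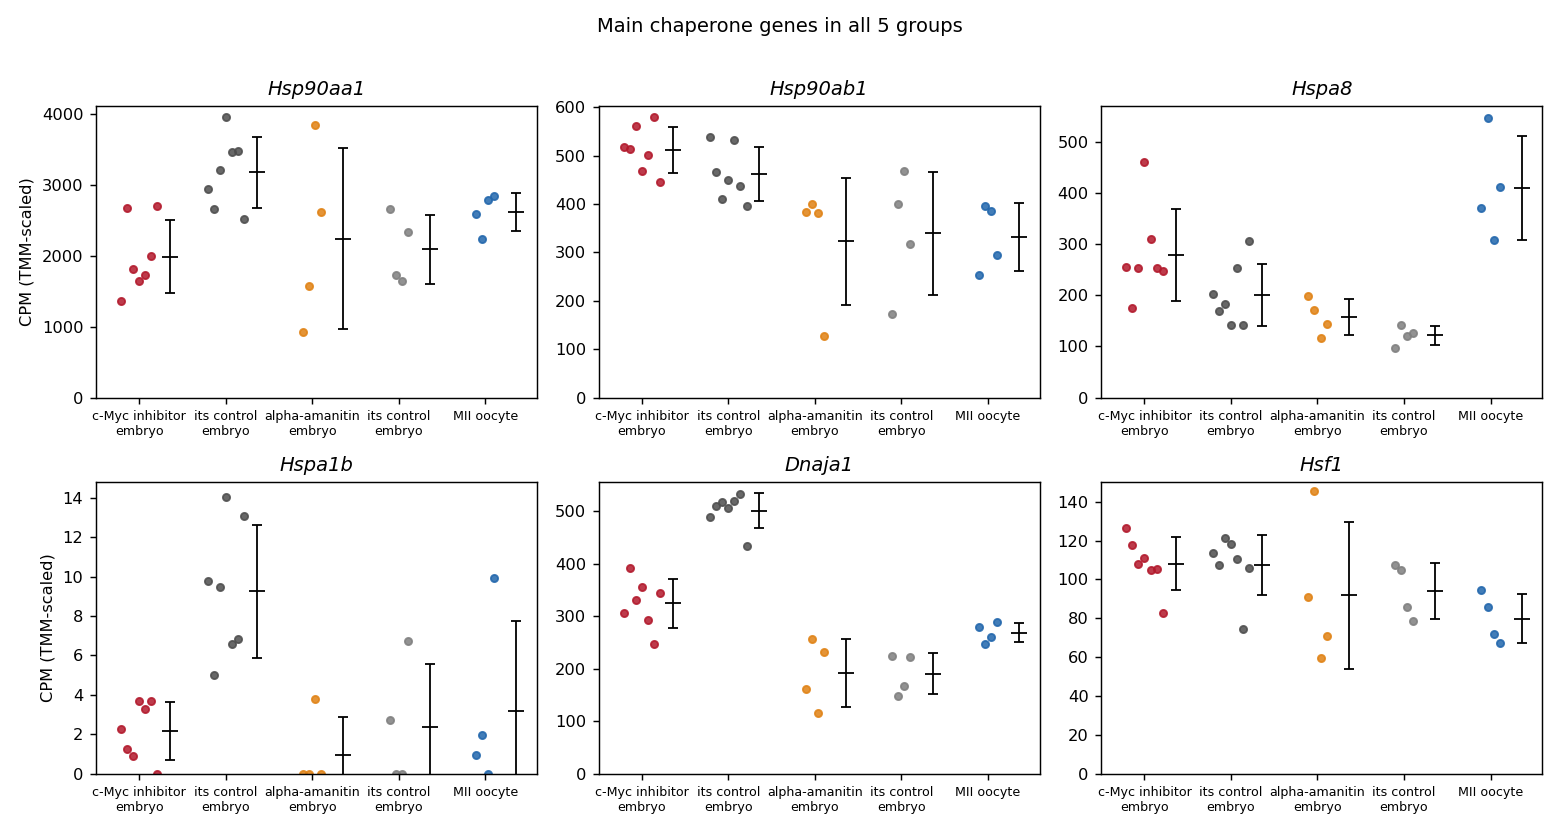
Level of 6 members in every library (points), in CPM on TMM-scaled library totals, for c-Myc inhibitor embryos and their controls (n = 7 each) and alpha-amanitin embryos, their controls and MII oocytes (n = 4 each). Bars give the mean and 1 SD on either side and are cut at 0, where each axis starts, and each panel has its own scale. Hsp90aa1 reaches 3964 CPM and Hspa1b at most 14.0, Hspa8 is highest in oocytes (308 to 547 CPM), and Dnaja1 is higher in all 7 c-Myc control libraries (433 to 533 CPM) than in any other library shown.

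The first comparison asked how inhibition of c-Myc changed these transcripts. Hsp90aa1, Hspa1b, 3 J protein genes (Dnaja1, Dnajb4 and Dnajc21) and the chaperonin subunit gene Cct2 fell in embryos given the c-Myc inhibitor, and 3 J protein genes of the ER lumen (Dnajc3, Dnajb11 and Dnajc10), Dnaja4 and Bag6 rose. Of the 71 members tested, 6 were lower, or 8.45%, beside 4.08% of all 13003 genes tested, and 5 were higher, or 7.04%, beside 6.82% of all genes. The share of higher members is thus near that of all genes. DESeq2 called 10 members lower and 5 higher, beside 8.83% and 10.8% of the 9725 genes it gave an adjusted p. These calls are an adjusted p under 0.05 in the quasi-likelihood F test of edgeR with Benjamini-Hochberg adjustment over all genes, and fold changes are log2 of c-Myc inhibitor over control embryos with their standard error (SE). The median log2 fold change of the 71 was 0.01, that of all genes was -0.00, and 36 members lay above 0 and 35 below. By compartment, 2 of the 52 tested members of cytosol, nucleus or other were higher and 6 lower, with a median of -0.09. Of the 5 ER lumen J proteins 3 were higher, and no member of the ER membrane or mitochondria was called. The libraries of both groups did not overlap for 3 lower members and no higher one, beside 1.18% and 2.72% of all genes.

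**Figure D2:**
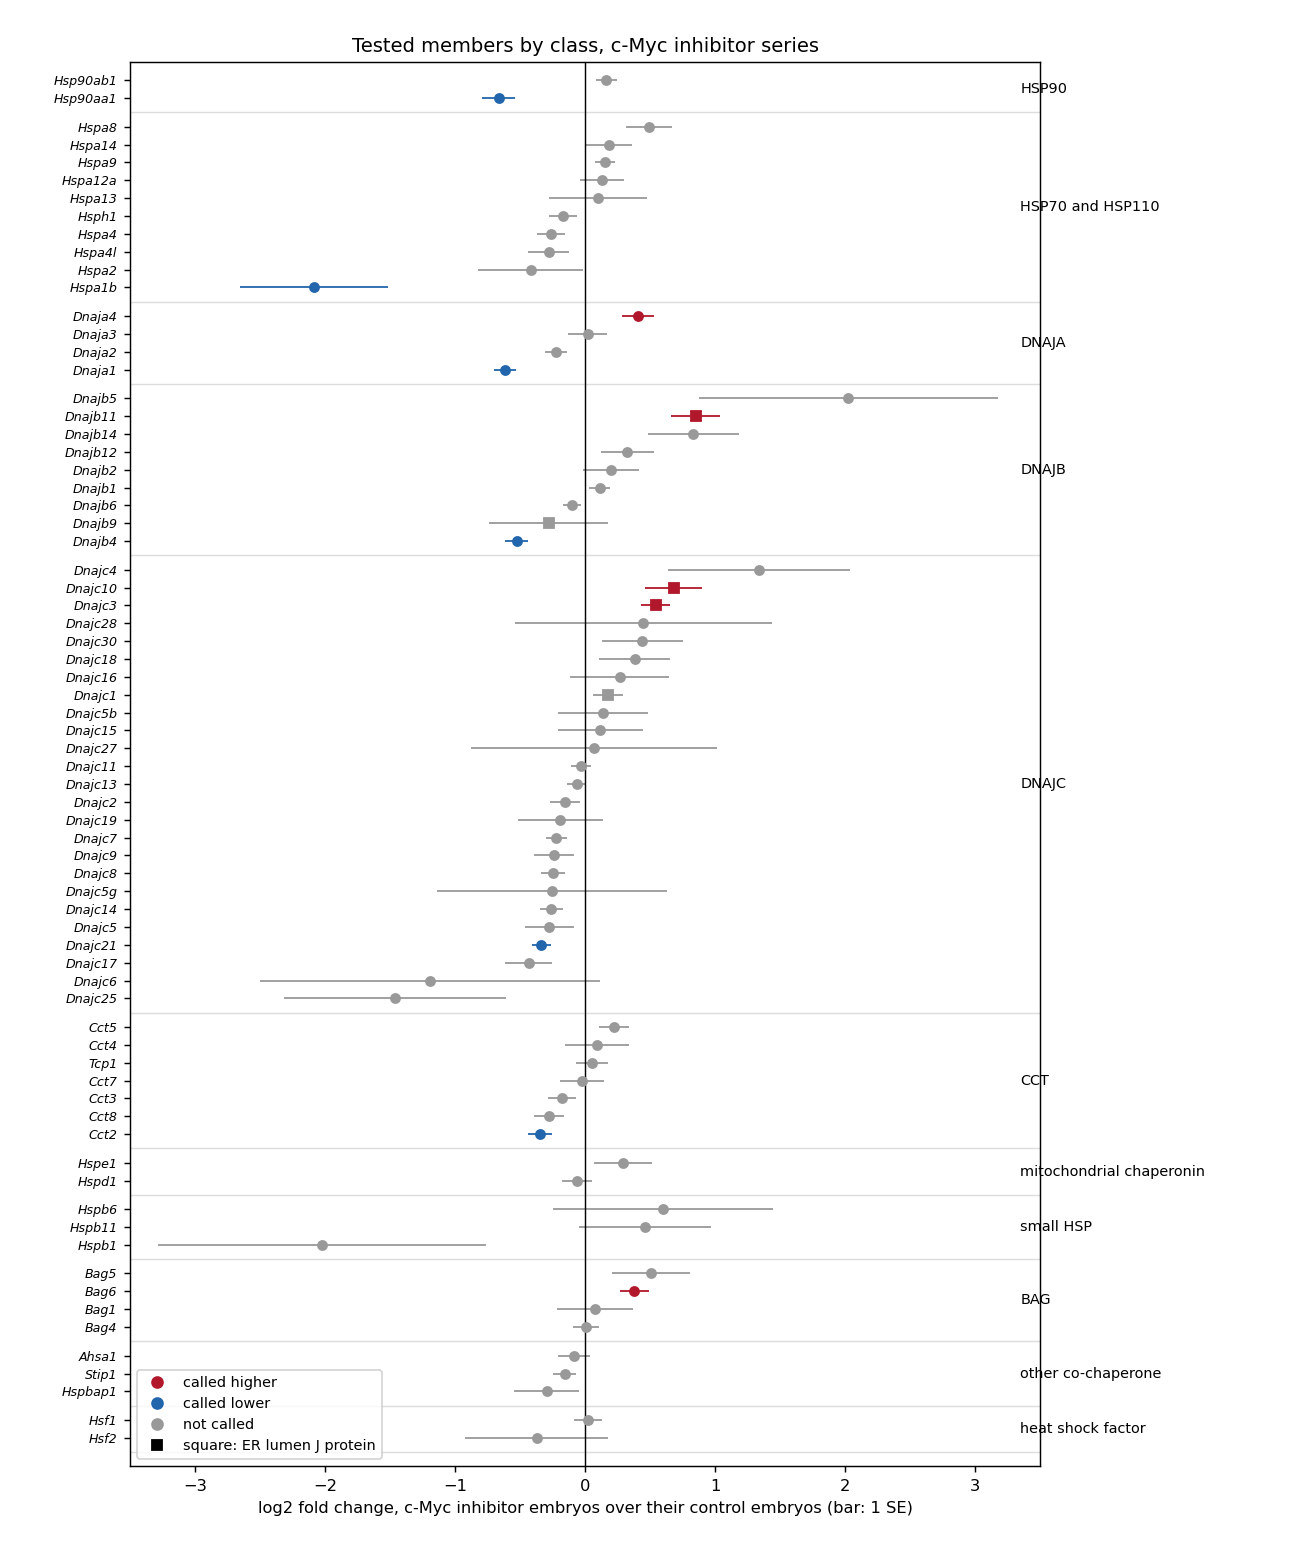
Log2 fold change of c-Myc inhibitor embryos over their control embryos for the 71 members tested, with 1 SE, grouped by class (squares: J proteins of the ER lumen, blue: called lower, red: called higher, grey: not called). The called members run from Hspa1b at -2.09 to Dnajb11 at 0.85, and 3 of the 5 squares are called higher.

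Within the HSP90 pair, Hsp90aa1 fell and Hsp90ab1 was not called. Hsp90aa1 (ENSMUSG00000021270, chr12:110690605-110702728, minus strand, GRCm38) had a lowest, median and highest level of 1360, 1810 and 2708 CPM in c-Myc inhibitor embryos, against 2523, 3211 and 3964 CPM in their control embryos. Only the upper end of the treated libraries reached into the control range. The means were 1989 ± 518 CPM in treated and 3178 ± 507 CPM in control embryos (SD, n = 7 each), or -0.66 on the log2 scale (SE 0.13, edgeR adjusted p = 0.000946). Hsp90ab1 averaged 512 ± 47.6 CPM in c-Myc inhibitor embryos and 461 ± 55.7 CPM in control embryos, a log2 fold change of 0.16 with a 95% interval of 0.0035 to 0.33, computed from the SE, and an edgeR adjusted p of 0.247. Hsp90aa1 therefore made up a smaller part of the members' counts in treated embryos, 19.4% ± 3.82 against 26.5% ± 2.95 in controls.

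Among the HSP70 and HSP110 genes, the inducible Hspa1b was the 1 called of 10 tested. Hspa1b (ENSMUSG00000090877, chr17:34956436-34959238, minus strand) had 0, 2.29 and 3.70 CPM as its lowest, median and highest level in c-Myc inhibitor embryos, against 5.03, 9.49 and 14.0 CPM in their control embryos. Every treated library lay below every control library, and in raw reads these were 0 to 92 counts against 116 to 337. The log2 fold change was -2.09 (SE 0.57, edgeR adjusted p = 0.0181). Hspa1b and its neighbour Hspa1a are near-identical copies: 62.3% of the 50-base stretches of the Hspa1b transcript also occur in Hspa1a, so reads can be split between them or lost. When the counts of both were added and fitted as 1 gene, the levels were 2.27 ± 1.52 CPM in c-Myc inhibitor embryos and 10.8 ± 4.78 CPM in control embryos (SD, n = 7 each), and the log2 fold change was -2.23 (edgeR adjusted p = 0.00277). By itself Hspa1a had counts in 3 of 7 treated libraries and 5 of 7 controls and was too low to be tested there.

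The promoters of Hspa1b and Hspa1a are shown because they carry the sequence that heat shock factors bind and because the reads of these copies are hard to tell apart. The 250 bases before each gene start differ at 3 positions (98.8% identical). Capitals mark the core of a heat shock element, searched as GAANNTTC or TTCNNGAA, which are each their own reverse complement and so cover both strands. The sequences are those of RefSeq, GRCm38.p6, at chr17:34959239-34959488 and chr17:34972157-34972406, both on the minus strand and printed 5′ to 3′.
Hspa1b: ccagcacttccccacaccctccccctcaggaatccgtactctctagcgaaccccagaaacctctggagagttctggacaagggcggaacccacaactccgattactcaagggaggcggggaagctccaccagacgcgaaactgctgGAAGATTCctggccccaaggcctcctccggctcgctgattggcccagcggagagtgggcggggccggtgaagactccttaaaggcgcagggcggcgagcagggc
Hspa1a: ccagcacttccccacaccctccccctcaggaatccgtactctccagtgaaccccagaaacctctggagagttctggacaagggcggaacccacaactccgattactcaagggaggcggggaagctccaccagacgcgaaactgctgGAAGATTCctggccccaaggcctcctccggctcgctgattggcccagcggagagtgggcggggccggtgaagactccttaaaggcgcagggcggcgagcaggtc

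The other HSP70 relatives did not pass the test. Hspa8 (ENSMUSG00000015656, chr9:40800984-40810087, plus strand), the constitutive HSP70, had a lowest, median and highest level of 174, 254 and 461 CPM in c-Myc inhibitor embryos and of 141, 182 and 306 CPM in control embryos, and the groups overlapped. Its log2 fold change was 0.49 (SE 0.18, edgeR adjusted p = 0.0765), with an adjusted p of 0.0274 without c-Myc inhibitor replicate 2, of 0.0158 without control replicate 8 and of 0.0206 with no filter on low counts. Exons of 3 small nucleolar RNA genes lie within its span. Hspa4, Hspa4l and Hsph1, the HSP110 genes that release ADP from HSP70, had log2 fold changes of -0.26, -0.28 and -0.17, none of them called (edgeR adjusted p from 0.141 to 0.420). Hspa2, an HSP70 known from spermatogenesis, ran from 2.04 to 9.28 CPM in treated and from 3.37 to 9.10 CPM in control embryos. Hspa14, an HSP70 that sits at the ribosome, was at 36.2 ± 9.18 and 32.1 ± 6.04 CPM, and Hspa9, the mitochondrial HSP70, at 445 ± 56.7 and 403 ± 23.5 CPM.

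The J proteins that start the HSP70 cycle in the cytosol gave the smallest p-values of all members. Dnaja1 (ENSMUSG00000028410, chr4:40722150-40737149, plus strand), a farnesylated partner of Hspa8, had 247, 331 and 392 CPM in c-Myc inhibitor embryos, against 433, 510 and 533 CPM in control embryos (lowest, median, highest). No treated library reached the lowest control library. Its log2 fold change was -0.62 (SE 0.09, edgeR adjusted p = 1.7e-05). Its exons overlap those of Smu1 on the other strand, and the sources used here do not give the strand setting of the counting. Dnajb4 (ENSMUSG00000028035, chr3:152178511-152210302, minus strand), a relative of the main stress-induced J protein Dnajb1, had 333, 398 and 513 CPM in treated embryos, against 529, 597 and 647 CPM in controls. Again the groups did not overlap, with a log2 fold change of -0.52 (SE 0.09, adjusted p = 0.000237 in edgeR). Dnajc21, a J protein of ribosome maturation, had 488, 538 and 598 CPM in treated embryos, against 585, 712 and 777 CPM in controls, and only the ends of the ranges met. Its log2 fold change was -0.34 (SE 0.07, edgeR adjusted p = 0.00283).

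Dnaja4, a J protein of the same family as Dnaja1, went the other way. It averaged 149 ± 22.5 CPM in c-Myc inhibitor embryos and 113 ± 21.5 CPM in control embryos (SD, n = 7 each), with overlapping libraries and a log2 fold change of 0.41 (SE 0.12, adjusted p = 0.0282 in edgeR). That call was lost in 7 of the 14 fits that leave out 1 library (c-Myc inhibitor replicate 2, 5, 7 or 8, or control replicate 4, 6 or 7), with an adjusted p of up to 0.0747. Dnaja2 (log2 -0.22), Dnajc7 (-0.22), which also binds HSP90, Dnajb6 (-0.10), which holds back aggregation, and Dnajb1 (0.11) did not pass the test, with edgeR adjusted p of 0.0930, 0.0946, 0.460 and 0.496. Dnajc7 had an adjusted p of 0.0478 without control replicate 7, and DESeq2 called both Dnaja2 (0.0313) and Dnajc7 (0.0259), lower in treated embryos.

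Among the 74 members with a promoter in the RefSeq table (250 bases before to 50 after the gene start), 20 held a heat shock element core, or 27.0%, beside 17.0% of the 27025 genes in that table. Of the 6 lower members, 5 were in the table and 4 of these held a core: Hspa1b, Dnaja1, Dnajb4 and Cct2. Dnajc21 held none in this window. Of the 5 higher members, 2 held one, Dnaja4 and Dnajc10. A gene can have more than 1 promoter window in that table, which gives a core more places to occur. Counted by window, a core was in 4 of 9 for the lower members and 2 of 6 for the higher ones. For all members it was in 22 of 94 windows, beside 15.1% of all 32851 windows. These are matches of letters and were not measured as bound sites. The stretches printed for Dnaja1, Dnajb4, Cct2 and Dnaja4 lie inside the GENCODE spans of their genes, before RefSeq starts that lie further in. The 30 bases printed for Dnaja1 lie within exons of Dnaja1 itself and of Gm6297, which runs on the other strand. The E-box CACGTG, the sequence that c-Myc and Max bind, was in 8 of the 74 (10.8%), beside 8.09% of all genes in the table, and in none of the called members that are in the table, where no match says only that these letters are not in this window. The stretches around the cores of called members are given for comparison with the Hspa1b promoter, with the core in capitals, 5′ to 3′ on the gene's strand: Dnaja1 at chr4:40722333-40722362 (plus), Dnajb4 at chr3:152193846-152193889 (minus), Cct2 at chr10:117063380-117063447 (minus), Dnaja4 at chr9:54699439-54699506 (plus) and Dnajc10 at chr2:80315254-80315321 (plus).
Dnaja1: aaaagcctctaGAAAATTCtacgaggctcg
Dnajb4: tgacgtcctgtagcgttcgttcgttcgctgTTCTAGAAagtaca
Cct2: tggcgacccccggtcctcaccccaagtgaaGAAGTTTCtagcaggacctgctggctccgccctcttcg
Dnaja4: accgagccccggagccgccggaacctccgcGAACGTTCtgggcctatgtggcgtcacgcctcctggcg
Dnajc10: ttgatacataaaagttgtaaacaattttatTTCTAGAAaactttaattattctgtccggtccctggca

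**Figure D3:**
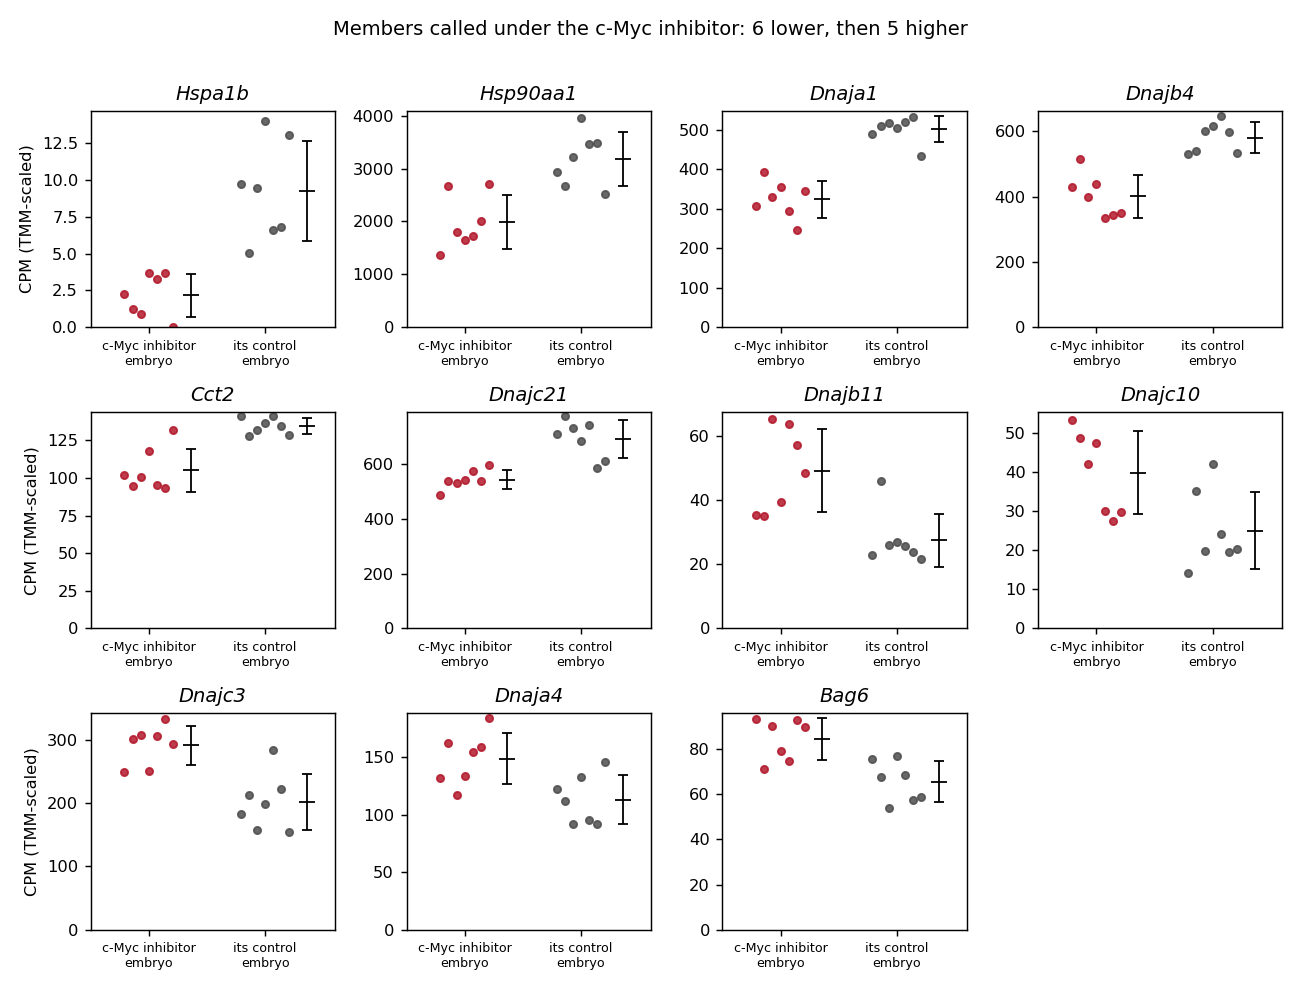
Level of the 11 called members in the 7 libraries of c-Myc inhibitor embryos and the 7 of their control embryos, in CPM on TMM-scaled totals (points: libraries, bars: mean and 1 SD, own scale in each panel). Of the lower members, Hspa1b, Dnaja1 and Dnajb4 have no treated library within the control range, while each of the 5 higher members has libraries that overlap.

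The 5 J proteins of the ER lumen assist the ER's own HSP70 in folding secreted proteins and in sending misfolded ones back to the cytosol. Of these, 3 rose under the c-Myc inhibitor and none fell. Dnajb11 (ENSMUSG00000004460, chr16:22857845-22879634, plus strand) had 35.0, 48.6 and 65.2 CPM in treated embryos, against 21.5, 25.9 and 45.9 CPM in controls (lowest, median, highest), with a log2 fold change of 0.85 (SE 0.19, adjusted p = 0.00373 in edgeR). The only control library inside the treated range was replicate 2. Dnajc3 (ENSMUSG00000022136, chr14:118937976-118981697, plus strand), also known as an inhibitor of eIF2alpha kinases, had 250, 302 and 333 CPM in treated embryos and 154, 199 and 283 CPM in controls, or 0.54 on the log2 scale (SE 0.11, edgeR adjusted p = 0.00206). Dnajc10, a J protein that reduces disulphide bonds, had 27.4, 42.2 and 53.5 CPM in treated embryos and 14.3, 20.2 and 42.1 CPM in controls, or 0.68 on the log2 scale (SE 0.22, edgeR adjusted p = 0.0480). That call was kept in only 5 of the 14 fits without 1 library. It was lost without c-Myc inhibitor replicate 1, 2, 3 or 4 or control replicate 1, 4, 6, 7 or 8, with an adjusted p of up to 0.114. Dnajc1 and Dnajb9, the other 2, had log2 fold changes of 0.18 (edgeR adjusted p = 0.434) and -0.28 (0.813). All of Dnajc3, Dnajb11 and Dnajc10 were also at their highest mean of the 5 groups in oocytes, at 365, 77.6 and 102 CPM. The oocytes belong to the other series of libraries, so this was not tested.

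Dnajc3 was the 1 member whose promoter held the ER stress element (CCAAT and CCACG spaced by 9 bases, on either strand), the sequence bound in stressed cells by ATF6 with NF-Y, which 0.137% of the 27025 genes hold. The stretch is shown with the element in capitals, at chr14:118937797-118937875 on the plus strand.
Dnajc3: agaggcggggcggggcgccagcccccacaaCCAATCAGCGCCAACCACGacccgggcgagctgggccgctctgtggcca

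Of the 7 chaperonin subunits tested, Cct2 fell and the rest were not called. Cct2 (ENSMUSG00000034024, chr10:117051001-117063814, minus strand) had 93.1, 101 and 132 CPM in c-Myc inhibitor embryos, against 128, 135 and 141 CPM in control embryos, with a log2 fold change of -0.35 (SE 0.09, adjusted p = 0.0151 in edgeR). The log2 fold changes of Cct8, Cct3, Cct7, Tcp1, Cct4 and Cct5 ran from -0.28 for Cct8 to 0.23 for Cct5 (edgeR adjusted p from 0.136 to 0.967). A chaperonin ring holds its subunits in equal number, and the mRNA levels per kilobase in control embryos ran from 5.18 for Cct4 to 52.6 for Cct2. These levels depend on the length of all annotated exons together, which ran from 2557 bases for Cct2 to 6778 for Cct7. Without that division the levels ran from 21.7 CPM for Cct4 to 138 CPM for Cct3. Cct6a, outside the set, had a log2 fold change of 0.05 (edgeR adjusted p = 0.983).

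Bag6, which guides membrane proteins and misfolded proteins in the cytosol, averaged 84.7 ± 9.31 CPM in c-Myc inhibitor embryos and 65.6 ± 8.99 CPM in control embryos (SD, n = 7 each), with a log2 difference of 0.38 (SE 0.11, edgeR adjusted p = 0.0290). The call was lost in 7 of 14 fits, without c-Myc inhibitor replicate 1, 3, 7 or 8 or control replicate 4, 7 or 8, with an adjusted p of up to 0.0674. Bag1, Bag4 and Bag5 also lay above 0 without a call, and Bag3, a stress-induced BAG gene, had 0.0131 CPM in treated and 0.0966 CPM in control embryos. The transcription factors themselves did not pass the test. Hsf1 averaged 108 ± 13.5 CPM in treated and 107 ± 15.4 CPM in control embryos (log2 0.02, interval -0.19 to 0.24). Hsf2 averaged 3.84 ± 2.61 and 5.01 ± 3.87 CPM. Stip1 (log2 -0.16), Ahsa1 (-0.08) and the mitochondrial chaperonin genes Hspd1 (-0.06) and Hspe1 (0.29), which share a promoter and overlap head to head, were not called either. Hspb1 had counts in 2 of 7 treated and 7 of 7 control libraries, with a log2 fold change of -2.02 (SE 1.26, adjusted p = 0.393 in edgeR).

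Chaperone genes outside the naming rule were read from a list of 53, of which 47 were tested. In embryos given the c-Myc inhibitor 6 of these 47 rose and 1 fell, beside 6.82% and 4.08% of all 13003 genes tested. Hyou1, an HSP110 relative of the ER lumen, averaged 168 ± 21.0 CPM in treated and 66.1 ± 16.3 CPM in control embryos, with libraries of 143 to 195 CPM and 54.2 to 101 CPM that did not overlap (log2 1.36, SE 0.13, edgeR adjusted p = 5.5e-08). Sgta and Ppp5c, which bind HSP70 or HSP90 through tetratricopeptide repeats, rose by 0.55 and 0.88 on the log2 scale, Clpb, a mitochondrial disaggregase, by 0.71, and the prefoldin subunit gene Pfdn6 by 2.32 (edgeR adjusted p = 0.00216, 0.00659, 0.00293 and 0.00970). Tsc1, an HSP90 cofactor, rose by 0.35 (0.0131). Ppid, an HSP90-bound prolyl isomerase, averaged 30.7 ± 5.73 CPM in treated and 44.6 ± 3.51 CPM in control embryos, or -0.53 on the log2 scale (SE 0.15, edgeR adjusted p = 0.0198).

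In 1 fit that pools the spread of all 5 groups, Hsp90aa1, Dnaja1 and Dnajb4 kept their calls in the c-Myc inhibitor comparison and the other 8 members lost theirs. The oocyte marker sum of the treated embryos lay between those of the controls and of the oocytes, which belong to the other series of libraries. Series and embryo differences cannot be told apart there, and the part of the marker sum in these results was not tested.

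The alpha-amanitin comparison asked which of these transcripts depend on RNA polymerase II, over an exposure of 10 h that began 1 h after insemination. No member was called, either higher (0.0228% of all 13133 genes tested) or lower (0.00761%). The common coefficient of variation between libraries that edgeR estimated was 1.12 in this series and 0.555 in the c-Myc inhibitor series. With this wider spread and 4 libraries in a group, a change of a given size passes the threshold less easily here. Of the 69 members tested, 7 had an unadjusted p under 0.05 in edgeR, as had 986 of all genes, and DESeq2 called 0 members, beside 0.707% of all genes higher and 0.249% lower. The libraries of both groups did not overlap for 1 lower member and no higher one, beside 1.58% and 1.21% of all genes. The median log2 fold change of alpha-amanitin over control embryos was -0.01 over the members and -0.01 over all genes.

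The member whose libraries did not overlap was Hspa12a, a distant HSP70 relative whose exons overlap Eno4 on the other strand. It had 50.01, 33.8, 29.0 and 30.2 CPM in the 4 alpha-amanitin libraries, against 54.2, 64.4, 89.0 and 77.9 CPM in the 4 control libraries, with a log2 fold change of -0.97 (SE 0.35, adjusted p = 0.524 in edgeR). Hspa1b and Hspa1a, summed, had 0, 0, 3.81 and 0 CPM in alpha-amanitin embryos, against 8.10, 0, 0 and 8.01 CPM in control embryos. Reads were thus found in 1 of 4 treated and 2 of 4 control libraries, and the interval of the Hspa1b log2 fold change ran from -6.43 to 3.76. The 3 treated libraries at 0 hold 19545589 to 31540627 counts, and the 1 with reads is the shallowest of the study.

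For the members that fell most clearly under the c-Myc inhibitor, the alpha-amanitin values were as follows. Hsp90aa1 had 918, 1578, 3850 and 2624 CPM in alpha-amanitin embryos, against 2661, 1733, 1647 and 2334 CPM in control embryos, and the treated libraries spread across and beyond the control range. Its log2 fold change was 0.12, with a 95% interval of -0.43 to 0.66. Dnaja1 had 162, 256, 115 and 232 CPM in alpha-amanitin embryos, against 224, 148, 167 and 222 CPM in controls (log2 0.03, interval -0.41 to 0.47). Dnajb4 had 546, 490, 562 and 581 CPM in alpha-amanitin embryos, against 555, 497, 597 and 490 CPM in controls (log2 0.05, interval -0.22 to 0.32), the narrowest of these intervals. A p that misses the threshold does not show that these levels were alike, and the intervals give the sizes that remain possible.

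The members with the smallest p-values among higher ones were low or uneven. Hspb6, a small heat shock protein of muscle, had 2.57, 2.84, 0 and 2.52 CPM in alpha-amanitin embryos and no count in the 4 control libraries, and its exons overlap those of Lin37 and Proser3 on the other strand. Dnajc16 had 7.84, 4.75, 76.4 and 0 CPM against 0, 0, 0 and 3.81 CPM, and Dnajc25 5.66, 3.38, 0 and 2.98 CPM against 0, 0, 0 and 0.109 CPM. With no filter on low counts Dnajc16 was called (edgeR adjusted p = 0.0473), and its highest value is that of the shallowest library, replicate 3. The chaperonin genes Tcp1 and Cct2 had log2 fold changes of 0.79 and 0.61, with edgeR adjusted p of 0.524 and 0.595, and in both genes replicates 3 and 4 of the treated embryos were the highest of their 8 embryo libraries. Among the other chaperone genes 0 of 47 were called in this comparison, by an adjusted p in edgeR.

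Whether the c-Myc inhibitor and alpha-amanitin acted differently on a member was tested as the difference of their log2 fold changes, in 1 fit of the 22 embryo libraries. No member of 74 was called in either direction, beside 0.678% (c-Myc inhibitor effect above that of alpha-amanitin) and 0.367% (below) of all 15790 genes tested. An unadjusted p under 0.05 was found for 11 of the 74 members and 2728 of all genes, and DESeq2 called 1 member above (Hspa12a) and 4 below (Dnajb4, Cct2, Dnajc25 and Hspb6), beside 2.65% and 4.04% of the 15568 genes it gave an adjusted p. The smallest p belonged to Dnajb4, with a difference of -0.57 (SE 0.16, edgeR adjusted p = 0.0677). Cct2 had a difference of -0.95 (0.0816), Dnaja1 of -0.64 (0.140), Hsp90aa1 of -0.77 (0.219), Dnajc3 of 0.61 (0.251) and Hspa12a of 1.10 (0.0981), with the edgeR adjusted p in brackets. With no filter on low counts Hsp90aa1 was called, with the same difference of -0.77 (edgeR adjusted p = 4.1e-09). Its size thus did not move and DESeq2 did not call it. Its alpha-amanitin libraries spread from 918 to 3850 CPM, and why the p fell so far without the filter was not tested.

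The third comparison set embryos at 10 h against MII oocytes, which carry the maternal transcripts before fertilisation. Hspa8, the chaperonin genes Cct5 and Tcp1, and the ER J protein gene Dnajc10 were lower in untreated embryos than in oocytes. Of 69 members tested, these 4 were lower, beside 1.78% of all 13133 genes, and 0 were higher, beside 1.11%. DESeq2 called 1 member higher (Dnajc8) and 5 lower, beside 2.22% and 3.76% of all genes, and 18 of the 69 (26.1%) had an unadjusted p under 0.05 in edgeR, as had 1846 of all genes (14.1%). The libraries of both groups did not overlap for 11 lower and 4 higher members (Dnajb6, Dnajc8, Dnajc11 and Dnajc14), beside 9.37% and 5.08% of all genes. The median log2 fold change of control embryos over oocytes was -0.04 over the members and -0.03 over all genes. Alpha-amanitin embryos over the same oocytes gave 2 lower members, Hspa8 and Cct5 (1.27% of all genes), and 0 higher (0.442%). There, 11 of 69 members (15.9%) had an unadjusted p under 0.05 in edgeR, as had 1387 of all genes (10.6%), DESeq2 called 0 higher and 4 lower, beside 4.19% and 5.95% of the 5231 genes it gave an adjusted p, and the libraries did not overlap for 9 lower members and 1 higher one (Dnajc18), beside 8.28% and 3.21% of all genes. Both comparisons share the 4 oocyte libraries, and each is given by its own values.

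Hspa8 had 199, 171, 117 and 143 CPM in alpha-amanitin embryos and 97.03, 142, 120 and 126 CPM in control embryos, against 371, 547, 308 and 411 CPM in oocytes. Every embryo library lay below every oocyte library. The log2 fold change was -1.76 in control embryos over oocytes (SE 0.21, edgeR adjusted p = 6.1e-05) and -1.36 in alpha-amanitin embryos over oocytes (SE 0.21, edgeR adjusted p = 0.00102). Hsp90aa1 had a log2 fold change of -0.33 in control embryos over oocytes (edgeR adjusted p = 0.805, and 0.0468 with no filter on low counts). Hsp90ab1, at 0.02 (interval -0.58 to 0.63), and Dnajb4, at 0.01 (-0.26 to 0.28), were not called either.

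All 7 chaperonin subunits tested had log2 fold changes below 0 in control embryos over oocytes, and 2 of them were called. Cct5 (ENSMUSG00000022234, chr15:31590800-31601804, minus strand) had 103, 95.9, 35.4 and 158 CPM in alpha-amanitin embryos and 90.3, 54.2, 78.3 and 78.0 CPM in control embryos, against 265, 301, 319 and 285 CPM in oocytes. All 8 embryo libraries lay below the lowest oocyte library, and the log2 fold changes were -1.97 in control embryos (SE 0.32, edgeR adjusted p = 0.000998) and -1.56 in alpha-amanitin embryos (SE 0.31, edgeR adjusted p = 0.00998). The window before its start holds the heat shock element core shown here in capitals, from chr15:31601862-31601891, minus strand, in RefSeq's GRCm38.p6. All 30 bases shown also lie in an exon of Fam173b on the other strand.
Cct5: acagcggccgaTTCCAGAAgctactctgcg
Tcp1 (ENSMUSG00000068039, chr17:12915701-12925067, plus strand), which overlaps Acat3 and Mrpl18 on the other strand, had 92.8, 85.7, 237 and 177 CPM in alpha-amanitin embryos and 50.2, 80.3, 91.6 and 125 CPM in control embryos, against 237, 249, 245 and 278 CPM in oocytes. Control embryos lay below all oocytes (log2 -1.55, SE 0.31, edgeR adjusted p = 0.00607), while alpha-amanitin replicate 3 reached the oocyte range (log2 -0.76, adjusted p = 0.312, and -1.08 with 0.0464 without that library). The remaining subunits had log2 fold changes from -0.76 for Cct4 to -0.00 for Cct7 in control embryos over oocytes, none called. Mean levels in control embryos and oocytes were 75.2 and 292 CPM for Cct5, 86.7 and 252 CPM for Tcp1, and 153 and 162 CPM for Cct3, and whether subunits differed in their change was not tested.

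**Figure D4:**
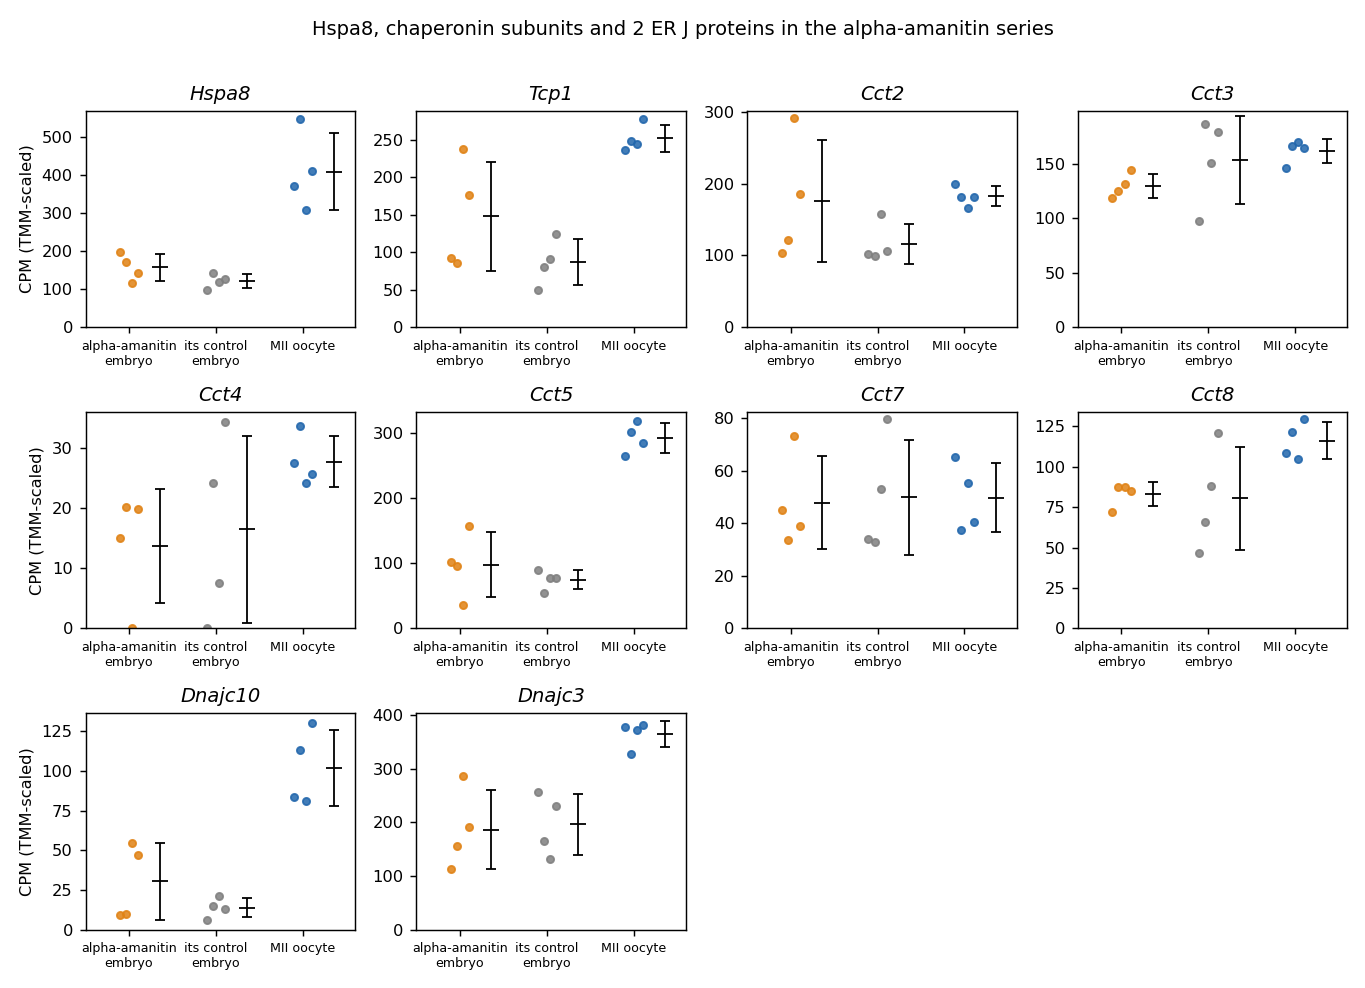
Level of Hspa8, the 7 tested chaperonin subunits, Dnajc10 and Dnajc3 in alpha-amanitin embryos, their control embryos and MII oocytes (4 libraries each), in CPM on TMM-scaled totals, with mean and 1 SD and an own scale in each panel. For Hspa8 and Cct5 all 8 embryo libraries lie below all oocyte libraries, and for Cct7 the 3 groups overlap.

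Of the ER lumen J proteins, Dnajc10 had 9.32, 10.2, 55.0 and 47.2 CPM in alpha-amanitin embryos and 6.31, 15.0, 21.2 and 13.1 CPM in control embryos, against 83.5, 113, 80.9 and 130 CPM in oocytes. All embryo libraries lay below the oocytes. The log2 fold change was -2.88 in control embryos over oocytes (SE 0.57, edgeR adjusted p = 0.00618) and -1.74 in alpha-amanitin embryos over oocytes (SE 0.55, adjusted p = 0.137, and 0.0346 without alpha-amanitin replicate 3). Dnajc3 had log2 fold changes of -0.90 and -0.96 in control and alpha-amanitin embryos over oocytes (edgeR adjusted p = 0.0528 and 0.0544), and its libraries did not overlap those of oocytes in either. For control embryos its adjusted p was 0.00995 without alpha-amanitin replicate 3, 0.0299 without alpha-amanitin replicate 1 and 0.0390 without control replicate 1. For alpha-amanitin embryos it was 0.00265 without alpha-amanitin replicate 3, 0.0454 without control replicate 1 and 0.0356 without control replicate 3. DESeq2 called Dnajc3 in both comparisons (0.0287 and 0.0165) and Dnajc10 also in alpha-amanitin embryos (0.0333). Dnajb11 had a log2 fold change of -1.75 in control embryos over oocytes (SE 0.79, edgeR adjusted p = 0.304), with 12.5 to 31.5 CPM in those embryos and 60.8 to 95.7 CPM in oocytes. All 5 of these genes lay below 0 in control embryos over oocytes. The oocyte marker sum was also lower in the embryos than in oocytes, as given above, and its part in these results was not tested.

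Of the members that lay higher in control embryos than in oocytes, those with the smallest p were 4 J protein genes and Bag4, none called. Dnajb6 had 257, 167, 204 and 216 CPM in control embryos, against 92.1, 153, 144 and 99.8 CPM in oocytes, with a log2 fold change of 0.78 (SE 0.28, adjusted p = 0.177 in edgeR), and it was called without alpha-amanitin replicate 3 (0.0394). In alpha-amanitin embryos it had 124, 209, 66.6 and 156 CPM. Dnajc8 had a log2 fold change of 0.45 in control embryos over oocytes (adjusted p = 0.109), Dnajc2, a J protein at the ribosome, of 0.61 (0.134), Dnajc11, a mitochondrial J protein, of 0.40 (0.277) and Bag4 of 0.50 (0.286), all in edgeR. Dnajc24, at 1.38, 1.43, 0.826 and 1.33 CPM in oocytes, had no count in any of the 8 embryo libraries of that series. Outside the naming rule, 1 of the 47 chaperone genes tested was called, higher in alpha-amanitin embryos over oocytes, beside 0.442% of all genes. This was St13, which binds HSP70 and HSP90 (log2 1.08, SE 0.20, edgeR adjusted p = 0.00606). Its level was 346 ± 103 CPM in alpha-amanitin embryos and 165 ± 24.4 CPM in oocytes.

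The untreated control embryos of both series have the same labels, yet of the 83 members with a count in either, 5 stood higher in the c-Myc series controls without overlap and 1 lower, beside 2.54% and 1.12% of all 27148 genes with a count there. Dnaja1 stood at 501 ± 32.9 CPM in the c-Myc series controls (n = 7) and 190 ± 38.8 CPM in the alpha-amanitin series controls (n = 4). Dnajb6 stood at 436 and 211 CPM, Cct5 at 111 and 75.2 CPM, Dnajc25 at 2.72 and 0.0272 CPM and Hspb6 at 2.22 and 0 CPM, and Dnajc14 at 186 and 233 CPM, in the same order. The series of libraries and any difference between the embryos cannot be told apart, so levels were tested only within a series. For Dnaja1 the c-Myc inhibitor embryos, at 324 ± 47.0 CPM, lay above the controls of the other series as well as below their own.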

How the data were processed

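The authors deposited 1 table of raw read counts per gene for 26 libraries made from total RNA with a SMARTer Stranded Pico Input kit, version 2, per the labels' protocols. The tools named are cutadapt 1.7.1 and STAR 2.5.0a, with build GRCm38, per the submitters' processing notes. The sources used here do not give the counting program, its strand setting or the annotation release. Gene IDs were paired with symbols of GENCODE vM21 (55141 of 55401), and the 260 IDs without one held 0.00563% of counts.

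Each series was fitted on its own with edgeR 4.0.16 (R 4.3.3, limma 3.58.1): TMM scaling, filterByExpr (minimum count 10, minimum total 15), quasi-likelihood F test, Benjamini-Hochberg adjustment over all genes tested, threshold 0.05. The difference of inhibitor effects came from 1 fit of the 22 embryo libraries. Levels are CPM on TMM-scaled totals with 1 set of factors over all 26 libraries. Per-kilobase values divide by the joint length of all annotated exons of a gene. Standard errors are the log2 fold change divided by the square root of F. Intervals are 1.96 standard errors on either side, which is narrower than a 95% interval of the F test. DESeq2 1.42.0, other scaling, no filter, 1 fit of all groups, a replicate block and leaving out each library were tried. The fit was also run on simulated data with 200 changed genes, and the outcome of that run is not given here.

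The members, gene lists and tests were chosen with earlier results of these data known. Named members are main chaperones of each class, called members and, for a direction with fewer than 5 calls, its 5 members of smallest p. The summed Hspa1a and Hspa1b fit, the ER stress element, Tsc1, Ppid and members given by levels only were chosen after their values were seen. Roles and compartments were assigned from general knowledge. Motifs were searched in RefSeq promoters of GRCm38.p6.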

Additional observations from a re-analysis of the deposited data

Results flagged for a closer look

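Groups of values were checked for the called members and for the share of counts on the members. Of these 75 groups, 3 held a library far from the others of its group, and chance flags about 1 in 20 such groups. Cct2 stood at 158 CPM in control replicate 3 of the alpha-amanitin series, where the other 3 control libraries had 98.6 to 106 CPM. Dnajb11 stood at 45.9 CPM in control replicate 2 of the c-Myc inhibitor series, where the other 6 had 21.5 to 26.8 CPM. Hspa1b stood at 3.81 CPM in alpha-amanitin replicate 3, the shallowest library, and at 0 in the other 3 alpha-amanitin libraries.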

How the results depend on the processing

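No called member changed direction under any alternative tried. Under the c-Myc inhibitor the 5 higher members became 0 in 1 fit of all 5 groups and 2 to 5 without 1 library, and the 6 lower ones became 10 in DESeq2, 3 in 1 fit of all groups and 6 to 7 without 1 library. Alpha-amanitin against control gave 1 higher member in place of 0 with no filter on low counts, and 0 without any 1 library. For control embryos over oocytes, 0 higher became 1 in DESeq2, 3 in 1 fit of all groups and 0 to 1 without 1 library, and 4 lower became 7 with no filter, 8 in 1 fit of all groups and 4 to 6 without 1 library. For alpha-amanitin embryos over oocytes, 0 higher became 1 in 1 fit of all groups, and 2 lower became 5 with no filter, 4 in DESeq2, 4 in 1 fit of all groups and 2 to 5 without 1 library. For the difference of effects, 0 higher became 1 in DESeq2, and 0 lower became 2 with no filter and 4 in DESeq2. The causes were not tested. Of the log2 fold changes of named genes under alternatives, 2454 kept their side of the threshold, 38 passed it newly and 36 no longer passed it. Changes of direction in genes that were called in neither fit were not counted.

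With the replicate number as a block, the c-Myc inhibitor comparison gave 3 higher and 4 lower members. It no longer called Dnajc10, Bag6, Hspa1b and Cct2 (edgeR adjusted p 0.115, 0.101, 0.0784 and 0.0735). That fit used only the 6 replicate numbers found in both groups, without c-Myc inhibitor replicate 3 and control replicate 6. Whether the block or the missing libraries cost these calls was not tested. The other within-series counts stayed at 0 and 0, 0 and 4, and 0 and 2. Same-numbered libraries did not deviate together (correlations of -0.031 to 0.049), so the numbers were not taken as pairs. Hspa1b had no read in 3 alpha-amanitin libraries, whose upper limits at 3 counts are 0.0951 to 0.153 CPM, for counting error only.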
